A study of Rattus norvegicus with 4 samples.

Results

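Immediate early genes are transcribed within minutes of a stimulus without new protein synthesis, and in neurons they are widely used as a record of recent activity or injury. The set described here has 10 genes, listed by name: the zinc finger factors Egr1 and Egr2, the orphan nuclear receptor Nr4a1, the AP-1 subunits Fos, Fosb, Fosl2, Jun and Junb, the stress-induced factor Atf3, and Gadd45a, a growth arrest and DNA damage gene. Of these 10 genes, 9 had a probe with a single gene symbol on the array, and Fosl2 had none. The 9 genes had 13 probes, of which 12 could be read and 8, one for each of 8 genes, were bright enough to be tested, out of 11039 genes with a readable probe in all.

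The libraries were total RNA of neurons cut out of rat vestibular ganglia by laser capture under calretinin immunofluorescence, pooled, and hybridised in 1 colour (Cy5). Calretinin is a calcium-binding protein. The 2 arrays titled calretinin positive stand for afferents ending as calyces on hair cells, and the 2 titled calretinin negative for dimorphic and bouton afferents. The labels give no genotype, strain, age, treatment or number of animals, and the free-text descriptions call the cells of all 4 samples positive, so the groups go by the titles alone and are called positive libraries and negative libraries. Nothing states that the arrays of a group came from separate pools of cells, so the p-values reflect array-to-array spread alone, possibly a technical one.

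The signal-responsive members share a way of being switched on. Kinases of the MAP kinase and calcium pathways act on factors already present at their promoters, serum response factor with its Elk partners at CArG boxes and CREB at cAMP response elements. Fos and Jun proteins pair to form AP-1, Egr1, Egr2 and Nr4a1 bind DNA sites of their own, Atf3 is induced in sensory neurons by axon injury, and Gadd45a acts in growth arrest and DNA repair. Egr2 is also known as the regulator of myelination in Schwann cells, so its transcript is not particular to neurons.

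The stretches of 250 bases before the annotated start are shown for 4 members whose results differ in direction: Egr1 and Gadd45a, which were higher in the positive libraries, Nr4a1, which was lower, and Egr2, which was not called. RefSeq promoter sequences of build GRCr8 were found for 7 of the 10 members. Capitals mark matches, on either strand, to the half-site of the cAMP response element (TGACG), the AP-1 site (TGACTCA), the EGR site (GCGGGGGCG) and the CArG box; no match overlaps another. The windows lie at chr18:26736828-26737077 on the plus strand (Egr1), chr20:21054442-21054691 on the minus strand (Egr2), chr7:134259888-134260137 on the plus strand (Nr4a1) and chr4:97486800-97487049 on the minus strand (Gadd45a).
Egr1: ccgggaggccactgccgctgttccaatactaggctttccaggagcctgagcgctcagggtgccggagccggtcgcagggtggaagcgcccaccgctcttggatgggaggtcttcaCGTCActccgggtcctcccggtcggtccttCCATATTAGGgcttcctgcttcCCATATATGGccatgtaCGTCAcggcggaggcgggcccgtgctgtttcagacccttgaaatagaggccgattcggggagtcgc
Egr2: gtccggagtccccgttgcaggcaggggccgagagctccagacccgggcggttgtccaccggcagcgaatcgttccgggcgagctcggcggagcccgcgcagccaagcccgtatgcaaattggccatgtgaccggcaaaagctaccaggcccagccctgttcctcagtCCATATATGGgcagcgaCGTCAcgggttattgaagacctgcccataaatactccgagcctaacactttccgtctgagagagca
Nr4a1: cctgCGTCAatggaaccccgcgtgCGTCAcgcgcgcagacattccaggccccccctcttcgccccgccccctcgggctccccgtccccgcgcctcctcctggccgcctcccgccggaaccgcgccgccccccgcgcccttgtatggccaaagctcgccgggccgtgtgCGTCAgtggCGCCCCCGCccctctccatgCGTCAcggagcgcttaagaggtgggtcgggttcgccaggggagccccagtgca
Gadd45a: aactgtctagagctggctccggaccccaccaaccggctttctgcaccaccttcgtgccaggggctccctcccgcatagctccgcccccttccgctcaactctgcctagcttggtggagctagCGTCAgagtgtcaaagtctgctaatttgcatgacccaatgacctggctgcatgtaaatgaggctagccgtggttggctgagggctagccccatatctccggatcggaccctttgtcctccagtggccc

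Egr1 has 2 CArG boxes, beginning at base -105 and base -83 from the start, and 2 half-sites at -135 and -66. Egr2 has 1 CArG box, also beginning at -83 and with the letters of the second Egr1 box (CCATATATGG), and 1 half-site, also at -66. Nr4a1 has 4 half-sites and 1 EGR site, and Gadd45a has 1 half-site. The AP-1 letters are not in these 4 windows. Of the member windows found and not shown, Junb has 1 half-site, Fosl2 has 1 EGR site and Fosb has none of these matches. Of 33469 RefSeq promoter windows of this length, 18.2% hold the half-site, 4.05% the AP-1 site, 1.5% the CArG box and 2.45% the EGR site. These matches describe letters, not bound sites.

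Intensities are on the authors' linear scale, where each array's median lies near 0.99, and a level is compared only within a probe. Log2 changes are positive minus negative and were tested with limma over 21070 probes, with Benjamini-Hochberg adjustment and a threshold of 0.05. Most of the array differed between these libraries: 64.2% of tested probes passed, 40.6% higher and 23.6% lower, and the groups did not overlap in 81.7%. The split depended on scaling: 8564 probes were higher and 4966 lower, against 6972 and 6035 with quantile and 6685 and 6783 with cyclic loess normalization between arrays. Calb2, the transcript of calretinin, was higher in the positive libraries (291 and 328 in positive against 138 and 129 in negative libraries). The names of Nr4a1, Egr2, Atf3 and a second Junb probe lie in the late part of the table, where names match the values 5 rows further down. Over 325 pairs of probes with one accession, one in each part, levels correlated at r = -0.136 at the own row and at r = 0.309 with the values 5 rows later. Probes are not independent replicates, and these r values describe the reading only.

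Of the 8 tested members, Gadd45a, Egr1 and Fos were higher and Nr4a1 and Atf3 lower in the positive libraries, while Egr2, Jun and Junb did not pass. The 5 of 8 called stand beside 64.2% of all tested probes, the 3 higher beside 40.6% and the 2 lower beside 23.6%. Their median log2 change was 0.08, against 0.11 for all tested probes. The share called in the set is thus near that of the whole array, and the set moved in both directions. Quantile and loess normalization brought the median of all probes to 0.015 and -0.015. With quantile normalization 3 members were higher and 3 lower, Egr2 being added to the lower ones, and with loess 3 were higher and 4 lower, Egr2 and Jun being added.

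**Figure D1:**
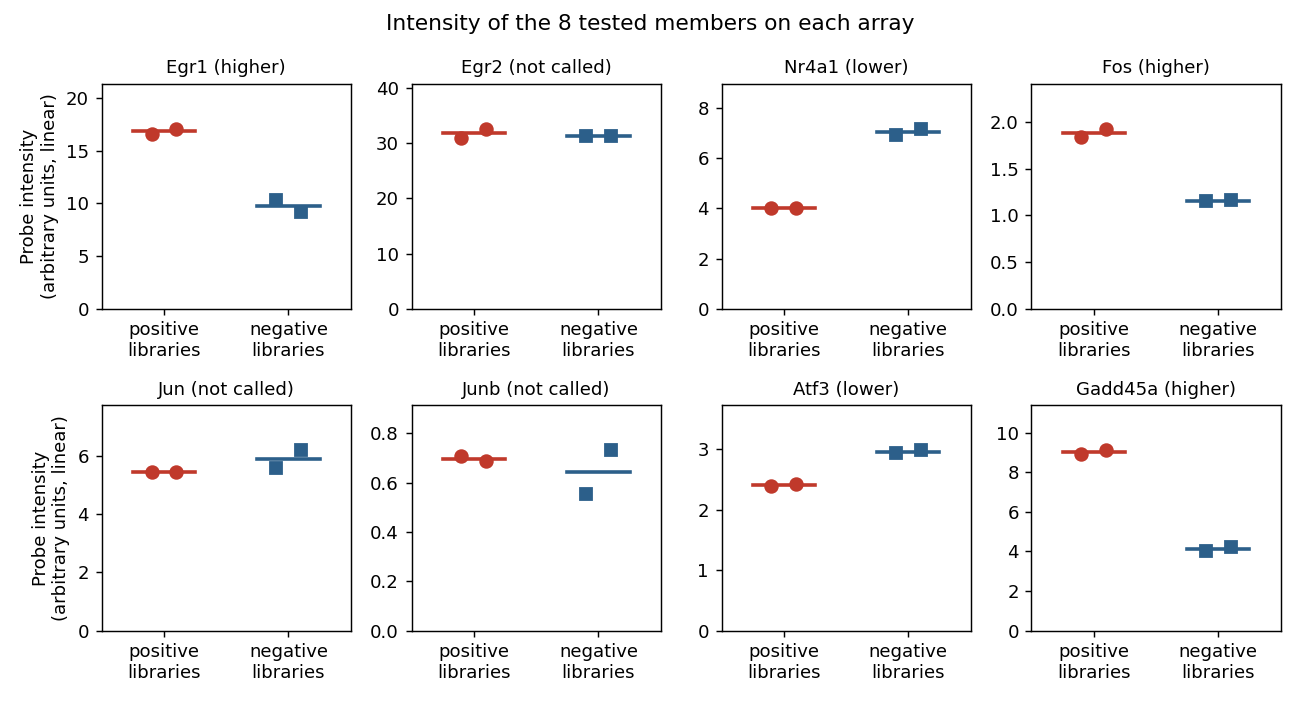
Intensity (linear, arbitrary units) of the 8 tested members, 1 panel a gene. Points are single arrays, with 2 positive libraries on the left and 2 negative libraries on the right, and bars are group means. Gadd45a, Egr1 and Fos sit higher and Nr4a1 and Atf3 lower in the positive libraries, and the panels of Egr2 and Junb overlap.

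Among the EGR and NR4A factors, Egr1, whose protein is a zinc finger activator induced by synaptic activity, had 16.6 and 17.1 in the positive libraries against 10.3 and 9.21 in the negative libraries. Both positive arrays were above both negative ones. The mean was 16.9 ± 0.35 in positive against 9.76 ± 0.78 in negative libraries (SD, n = 2 each), a 1.73-fold difference (log2 change 0.79 ± 0.07, SE; adjusted p = 1.29e-05, limma, Benjamini-Hochberg). A more positive log2 change was seen in 12.9% of all tested probes. With quantile and loess normalization the change was 0.63 and 0.61.

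A second Egr1 probe, of the same accession, read 0.283 and 0.278 in the positive libraries and 0.237 and -0.0134 in the negative libraries. These values lie below the dim-probe limit of 0.456, so that probe was not tested, and the rise rests on 1 probe.

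Nr4a1 encodes Nur77, an orphan nuclear receptor induced by many signals, and had 4.02 and 4.02 in the positive libraries against 6.9 and 7.16 in the negative libraries. All the positive values were below the negative ones. The mean was 4.02 ± 0.00163 in positive against 7.03 ± 0.186 in negative libraries (SD, n = 2 each), and limma gave a log2 change of -0.81 ± 0.07 (SE; Benjamini-Hochberg adjusted p = 6.12e-06). Nr4a1 thus moved opposite to Egr1, and 9.46% of tested probes had a more negative change. Without the move by 5 rows, the value at its own row was 0.11 on average in the positive libraries and 0.105 in the negative libraries, below the dim-probe limit, so this fall depends on that reading.

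Egr2 encodes the zinc finger factor also called Krox20. It read 31 and 32.6 in the positive libraries and 31.3 and 31.3 in the negative libraries. The groups overlapped. The log2 change was 0.02, with a 95% interval from -0.13 to 0.17 (adjusted p = 0.803, limma, Benjamini-Hochberg). It became -0.21 with quantile and -0.19 with loess normalization, each past the threshold, so the direction of Egr2 is not settled between scalings. At its own row the probe averaged 0.195 in positive and 0.106 in negative libraries. In the same libraries 6 of 7 tested markers of Schwann cells and satellite glia were lower in the positive libraries, as were 23.6% of all tested probes. Mbp had 1.56 and 1.54 in positive against 13.4 and 13.4 in negative libraries. Sox10 had 1.13 and 1.46 in positive against 6.09 and 6.12 in negative libraries. Prx differed less, at 113 and 101 in positive against 191 and 207 in negative libraries (log2 change -0.89). The seventh, Apoe, was higher (144 and 140 in positive against 83 and 82.4 in negative libraries). Of 4 tested central myelin markers 2, Mog and Mobp, were also lower, and 2 were not called. Which glial cells the Mbp and Sox10 transcripts came from was not tested.

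Among the AP-1 subunits, Fos, the partner of Jun proteins most used as an activity marker, had 1.84 and 1.93 in the positive libraries against 1.15 and 1.17 in the negative libraries. The groups did not overlap. The mean was 1.88 ± 0.0595 in positive against 1.16 ± 0.0147 in negative libraries (SD, n = 2 each), a 1.63-fold difference (log2 change 0.70 ± 0.10, SE; adjusted p = 0.000241, limma, Benjamini-Hochberg). The change was 0.71 with quantile and 0.68 with loess normalization. The probe is named through an expressed sequence tag, and another Fos probe lies between the parts of the table and was left out.

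Jun, the subunit that can also pair with itself, had 5.45 and 5.46 in the positive libraries and 5.6 and 6.19 in the negative libraries. The groups did not overlap, but the negative arrays were spread. The log2 change of -0.11 had a 95% interval from -0.28 to 0.06 (adjusted p = 0.222, limma, Benjamini-Hochberg). With loess normalization Jun passed, at -0.25 (adjusted p = 0.0186), and with quantile normalization it did not, at -0.18 (adjusted p = 0.0707).

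Junb, a subunit that can hold back the activity of Jun, had 0.708 and 0.687 in the positive libraries and 0.555 and 0.73 in the negative libraries. These values overlapped and lay not far above the dim-probe limit. The log2 change was 0.13, with a wide 95% interval from -0.34 to 0.60 (adjusted p = 0.603, limma, Benjamini-Hochberg). A second Junb probe was dimmer still, at 0.148 and 0.212 in positive against 0.0819 and 0.111 in negative libraries, and was not tested.

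Fosb, a Fos relative whose truncated form accumulates with repeated stimulation, had a probe below the dim-probe limit on all 4 arrays, at 0.137 and 0.238 in the positive libraries and 0.329 and 0.417 in the negative libraries. It was not tested, and no fold is given. Both positive values were below the negative ones.

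**Figure D2:**
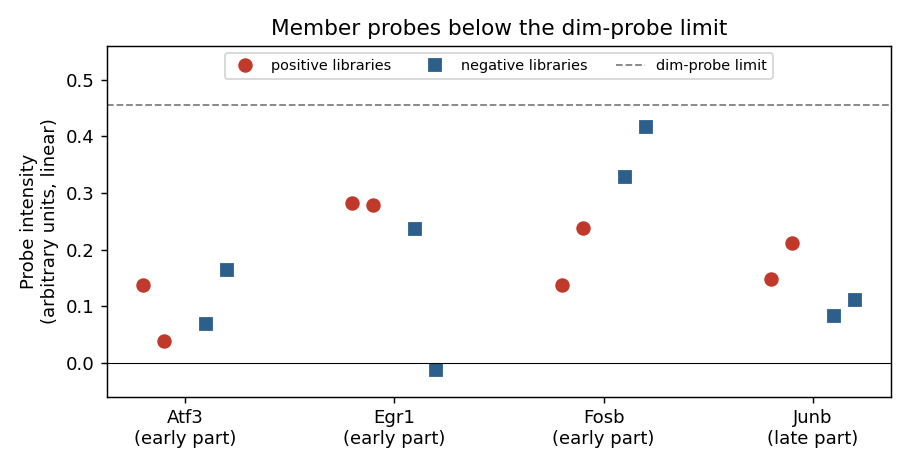
Intensity (linear, arbitrary units) of the 4 member probes that were read and not tested. Circles are the 2 positive libraries, squares the 2 negative libraries, and the dashed line is the dim-probe limit of 0.456; no value reaches it.

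Of the stress-induced members, Gadd45a had the largest change of the 8. It read 8.94 and 9.11 in the positive libraries against 4.01 and 4.24 in the negative libraries, with no overlap. The mean was 9.02 ± 0.119 in positive against 4.12 ± 0.162 in negative libraries (SD, n = 2 each), a 2.19-fold difference (log2 change 1.13 ± 0.07, SE; adjusted p = 7.71e-07, limma, Benjamini-Hochberg). It was the 1 member called with at least a 2-fold difference, where 15.3% of tested probes were (8.28% higher by that much), and 6.51% of tested probes had a more positive change. With quantile and loess normalization the change was 1.05 and 0.99.

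Atf3, a factor that sensory neurons switch on after axon injury, had 2.39 and 2.42 in the positive libraries against 2.94 and 2.98 in the negative libraries. The groups did not overlap and the difference was small. The log2 change was -0.30 ± 0.08 (SE; adjusted p = 0.00728, limma, Benjamini-Hochberg), and 59% of tested probes had a change of larger size. This probe lies in the late part and averaged 0.187 in positive and 0.0057 in negative libraries at its own row. A second probe, of the same accession in the early part, was dim, at 0.137 and 0.0378 in positive against 0.0675 and 0.163 in negative libraries, with overlapping groups.

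**Figure D3:**
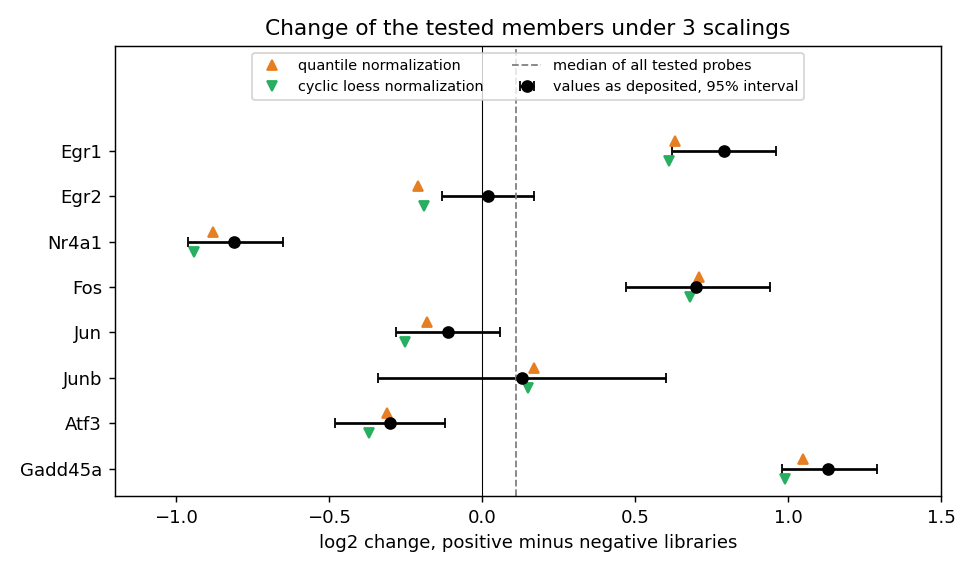
Log2 change (positive minus negative) of the 8 tested members, with 95% intervals from limma (black), and the same change after quantile (up triangles) and cyclic loess normalization (down triangles); the dashed line is the median of all tested probes, 0.11. Gadd45a, Egr1 and Fos keep to the right and Nr4a1 and Atf3 to the left under all 3 scalings, while Egr2 crosses 0.

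The patterns most like those of the 2 members with the smallest p were sought among 8171 other tested genes, by the distance of log2 values, centred on each gene's mean, over the 4 arrays. Nearest to Gadd45a were Serpinb11 (distance 0.017), Nup54 (0.028) and Eif4ebp2 (0.03), whose log2 changes were 1.14, 1.11 and 1.12. Nearest to Nr4a1 were Ascl3 (0.014), Secisbp2l (0.03) and Slc7a4 (0.043), with -0.82, -0.78 and -0.82. Over 4 arrays in 2 groups such likeness is common: 35 genes lay nearer than 0.1 to Gadd45a and 42 to Nr4a1.

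Beyond the members, 40 other immediate early genes were listed, of which 35 were readable and 24 tested. In the positive libraries 8 were higher and 5 lower, with 11 not called, beside 40.6% higher and 23.6% lower among all tested probes. Their median log2 change was -0.04 against 0.11 for all tested probes. With quantile normalization 7 were higher and 5 lower, and with loess 7 and 7. Without the first negative array, 5 were higher and 2 lower. Each gene described below as higher or lower passed the adjusted threshold.

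Cebpd, a C/EBP factor of the acute phase response, had 11 and 11.9 in the positive libraries against 3.76 and 3.77 in the negative libraries (log2 change 1.60). Ier3, a survival gene induced by stress, had 157 and 154 in positive against 89.6 and 96.6 in negative libraries (0.74). Klf10, a TGF-beta-induced zinc finger factor, had 9.34 and 10 in positive against 6.31 and 5.41 in negative libraries (0.73). No overlap between groups was part of the rule by which these 3 genes were named, and 81.7% of all tested probes did not overlap.

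Dusp1, a phosphatase that turns off MAP kinases, was also higher, at 9.99 and 10.2 in positive against 7.45 and 6.97 in negative libraries (log2 change 0.48). Its relative Dusp2 was lower, at 18.6 and 17.6 in positive against 21.2 and 21 in negative libraries (-0.22), as were the repressor gene Nfil3 (-0.24) and the small MAF gene Maff (-0.18). Jund, a Jun relative, was lower too (-0.71, adjusted p = 0.0342), but not past the threshold with quantile normalization (adjusted p = 0.0617, limma, Benjamini-Hochberg). Its values were 0.405 and 0.374 in positive, below the dim-probe limit of 0.456, against 0.558 and 0.725 in negative libraries. The feedback phosphatase genes Dusp1 and Dusp2 thus differed in direction. A further relative, Dusp5, was not called at its brightest probe (-0.17), which passed as lower with quantile (-0.25) and loess normalization (-0.31). A dimmer Dusp5 probe was higher (0.68).

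Of the other NR4A and EGR relatives, those tested did not pass, and Egr3 was below the dim-probe limit and not tested. Nr4a2 had 7.79 and 7.83 in the positive libraries and 7.52 and 7.45 in the negative libraries (log2 change 0.06). Nr4a3 (-0.25) and Egr4 (-0.83, adjusted p = 0.055, limma, Benjamini-Hochberg) lay near the dim-probe limit. Homer1, a synaptic scaffold gene with an activity-induced short form, was higher at its brightest probe (0.35), which became 0.13 and 0.14 and did not pass with either normalization, and 2 dimmer probes of it did not pass (0.04 and -0.18).

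Of 47 stress response and injury genes, 32 were readable and 25 tested. In the positive libraries 16 were higher and 2 lower, with 7 not called, beside 40.6% higher and 23.6% lower among all tested probes. Their median log2 change was 0.44 against 0.11 for all tested probes. With quantile normalization 14 were higher and 2 lower (median 0.26), and with loess 15 and 2 (median 0.27). When each probe was judged by its own variance alone, 10 were called higher and 1 lower.

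Hsp90ab1, a constitutive cytosolic chaperone gene, had 7.88 and 7.61 in the positive libraries against 4.01 and 4 in the negative libraries (log2 change 0.95). Hspb8, a small heat shock protein gene, had 32.6 and 30 in positive against 16.7 and 17.1 in negative libraries (0.88), and its second probe was also higher (0.70). Hspb1, the small heat shock protein that injured sensory neurons induce, was lower, at 9.13 and 10.7 in positive against 15.7 and 14.7 in negative libraries (-0.62). The other chaperone and co-chaperone genes called, Hspa5 (0.74), Hspd1 (0.53, and 0.08 and not called at a dimmer probe), Bag3 (0.53), Dnajb1 (0.35) and Hsph1 (0.24), were higher, though under neither normalization between arrays was Hsph1 called (0.02 and -0.06), and Calr (0.15) and Hspe1 (0.17) were not called.

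Chac1, a glutathione-degrading target of the ATF4 pathway, had 250 and 261 in the positive libraries against 137 and 148 in the negative libraries (log2 change 0.85). Atf4 (0.50) and Ddit3 (0.43) were also higher, though Ddit3 did not pass with quantile normalization (0.15, adjusted p = 0.0676, limma, Benjamini-Hochberg). Trib3, another target of that pathway, was lower, at 0.503 and 0.435 in positive against 1.19 and 1.08 in negative libraries (-1.28). The positive values of Trib3 lay near the dim-probe limit of 0.456, so the size of its change is uncertain. Sod2, the mitochondrial superoxide dismutase gene, was higher at its brightest probe, at 33.6 and 35.2 in positive against 21.6 and 23.2 in negative libraries (0.62), and did not pass at a dimmer one (0.19). Gap43, a growth cone gene that injury induces, was not called at its brightest probe (0.12) and was lower at a dimmer one (-1.62).

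**Figure D4:**
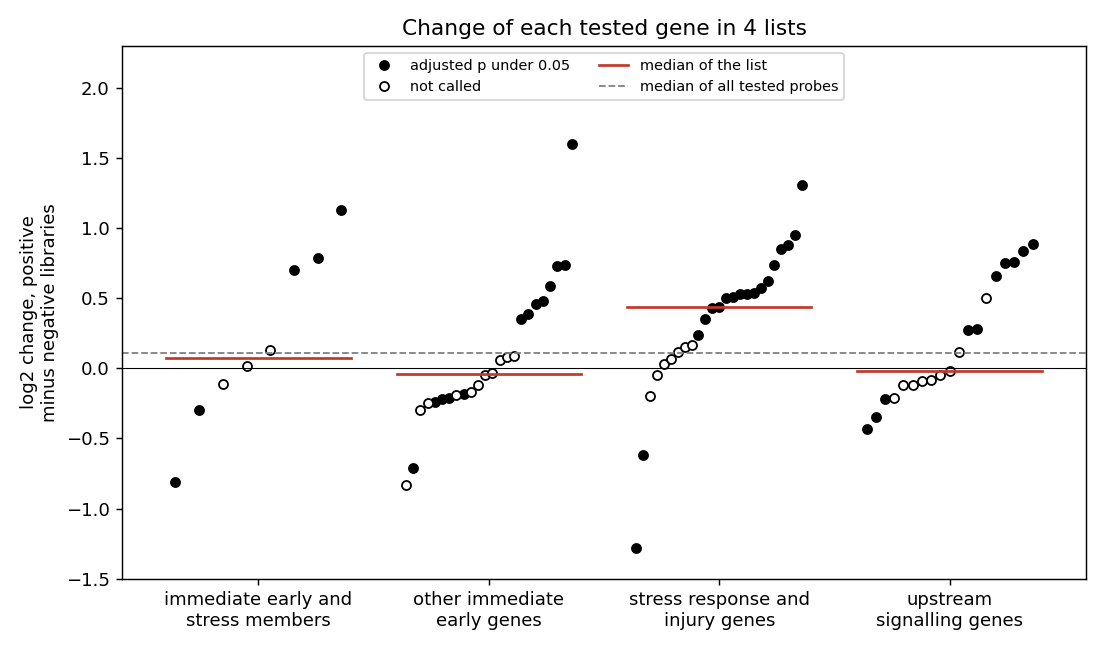
Log2 change (positive minus negative) of each tested gene, sorted within 4 lists; filled points have an adjusted p under 0.05, red bars are list medians (0.08, -0.04, 0.44 and -0.02 from left to right) and the dashed line is the median of all tested probes, 0.11.

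Of 35 genes of the kinases and factors that act on immediate early promoters, 25 were readable and 19 tested: 7 were higher and 3 lower in the positive libraries, with a median log2 change of -0.02. That split was 5 and 6 with quantile and 5 and 7 with loess normalization. Over all tested probes 40.6% were higher and 23.6% lower, with a median log2 change of 0.11. Rps6ka3, a ribosomal S6 kinase gene, was higher, at 15.6 and 15 in positive against 8.4 and 8.13 in negative libraries (log2 change 0.89). Mapk8, the JNK1 gene, was higher at its brightest probe, at 43.7 and 48.5 in positive against 25.7 and 25.6 in negative libraries (0.84). That change was 0.60 with quantile and 0.62 with loess normalization. A dimmer Mapk8 probe was also higher (0.97), and another did not pass (0.41). Elk1 (0.75) and Elk4 (0.66), partners of serum response factor, were also higher, but a dimmer Elk4 probe did not pass (-0.08). Srf itself, which binds CArG boxes such as those printed for Egr1 and Egr2, was lower, at 1.42 and 1.36 in positive against 1.76 and 1.79 in negative libraries (-0.35), and a second probe was lower as well (-0.67). Mapk8ip1, a JNK scaffold gene, was lower (-0.43), and Mef2a was lower at its brightest probe (-0.22) and higher at another (0.55).

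Many cell types carry immediate early transcripts, and in pooled cells fewer cells of a type and less RNA per cell cannot be told apart. The sums given here add the intensities of a list's probes on each array, so bright probes carry them, and the median log2 change stands beside each. The counts called stand beside 40.6% higher and 23.6% lower among all tested probes. Of 7 markers of Schwann cells and satellite glia that were tested, 6 were lower and 1, Apoe, higher in the positive libraries (median -2.25). Their sums were 250 to 265 in positive against 371 to 388 in negative libraries, carried by Apoe and Prx, while Gfap averaged 1.04 in positive against 44.5 in negative libraries. Of 4 central myelin markers 2 were lower (median -2.70), Mog at 1.0 in positive against 42.9 in negative libraries and Mobp at 1.9 in positive against 76.6 in negative libraries. Their sums, 197 to 201 in positive against 320 to 329 in negative libraries, were carried in the positive libraries by Cldn11, which was not called (185 in positive and 194 in negative libraries) and passed as lower with quantile and with loess normalization. Of 8 endothelial and mural markers 7 were lower and none higher (median -1.42; sums 31.5 to 32.2 in positive against 85.5 to 89.5 in negative libraries). Of 8 immune and blood markers 5 were lower and 2 higher, or 1 higher with either normalization (median -0.75; sums 96 to 100 in positive against 175 to 184 in negative libraries). Of 9 meningeal and fibroblast markers 6 were higher and 2 lower (median 0.59; sums 978 to 1018 in positive against 555 to 560 in negative libraries). Their median was 0.31 with quantile and 0.28 with loess normalization. The meningeal and fibroblast sums were carried most by Vim (361 in positive against 240 in negative libraries) and Slc47a1 (243 in positive against 59.3 in negative libraries). Dcn (-0.97) and Col1a1 (-0.24) were lower, and Col1a2 was not called. Of 8 neuron markers, Calb2 among them, 5 were higher and 2 lower (median 0.25; sums 814 to 860 in positive against 642 to 644 in negative libraries), but with quantile and with loess normalization 3 were higher and 3 lower (median -0.01), so their direction as a list is not settled. The gap between the neuron sums was mostly that of Calb2, the transcript of calretinin, which averaged 309 in positive against 134 in negative libraries. No tested marker of these lists was at 0 in either group. Markers on dim probes had been left out beforehand, so this does not show that each cell type was present. The part of other cell types in the results for the members was not tested.

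How far a single probe speaks for its gene can be described from genes with 2 or more tested probes. Over 1671 such pairs the log2 changes correlated at r = 0.299 and had the same sign in 63.9%, and over 317 pairs of one accession at r = 0.527 with 68.8%. Each tested member rests on 1 probe.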

How the data were processed

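The authors deposited linear probe intensities, processed by them, with array medians near 0.99. The sources used here do not state the scanner, the background correction or the normalization. Of 35126 probes, 16677 had 1 gene symbol in the platform annotation, and 16649 of these had their gene ID in the RefSeq table used to update symbols. Names of the early part (7449 probes) were read at their own row and of the late part (7218) 5 rows later, and 2010 between were left out. Entries of -9999 were missing, and 9 probes missing on every array were dropped. Other missing, zero or negative values were set to the array's percentile 1 of positive values before log2. Probes with a mean below the 40th percentile (intensity 0.456) were left out, which left 21070. limma 3.58.1 in R 4.3.3 (lmFit, eBayes with a trend, two-sided) was applied to all 4 arrays, with Benjamini-Hochberg adjustment, and was tested on simulated data. An exact permutation test of 2 against 2 arrays cannot reach the threshold. The brightest tested probe stood for a gene that had more than 1. Control probes, which no column marks, stayed in the test. No further normalization was applied.

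The members and gene lists were chosen with earlier results of these data known, so no p is given over a list. Named were all members, every tested gene of the other immediate early list where space allowed, up to 4 called genes in each direction with the smallest p and no overlap from each other list, and the 3 genes nearest in pattern to each of 2 members. Beyond this rule, Atf4, Ddit3, Gap43, Hspa5, Hspd1, Bag3, Dnajb1, Hsph1, Calr, Hspe1, Prx, Cldn11, Vim and Col1a2 were named after their values were seen. Alternatives were other normalizations, filters, low-value treatments, variance priors, a replicate block, leaving out each array, other readings of names and means over probes. Figures were drawn with matplotlib 3.10.9.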

Additional observations from a re-analysis of the deposited data

How the results depend on the processing

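Over 17 settings, 125 of 128 values of the tested members stayed on the same side of the threshold, with the same direction if called. The exceptions were Egr2, at -0.21 with quantile and -0.19 with cyclic loess normalization in place of 0.02, and Jun, which passed at -0.25 with loess. Part of the agreement was fixed beforehand. The other readings of names reused the main fit, so members of the early part kept their main values there. A mean over probes could not move the log2 change of members with 1 tested probe. The called members kept their calls in each setting that tested them: Gadd45a ranged from 0.97 to 1.17, Egr1 from 0.61 to 0.87, Fos from 0.42 to 0.74, Nr4a1 from -0.94 to -0.68 and Atf3 from -0.37 to -0.22. With late names at their own row, or early names only, 3 of 5 tested members were called, because Nr4a1, Egr2 and Atf3 then had no tested probe. With early names only, 8 other immediate early genes and 5 upstream genes were called, out of fewer tested. With each probe on its own spread, 7082 probes were called in place of 13530, with 6 other immediate early, 11 stress and 6 upstream genes. Without any single array there were 12262 to 12764 probes, 5 members, 7 to 12 other immediate early genes (7 without the first negative array, against 13), 17 to 18 stress genes and 9 to 10 upstream genes. The array left alone is taken to vary as the other group does. The replicate block called 13711 probes and 5 members and changed no member's call. Deviations of arrays with one replicate number were uncorrelated (r = 0.0005565 over 21070 probes), and the numbers were not used for pairing. The causes were not tested except where fewer genes or probes were tested. With 2 arrays a group, the number of arrays limits the precision, most for dim probes such as Junb.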
